A study of Homo sapiens with 12 samples.

Results

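The response of CAL-29 cells to the knockdown of KMT9α was analysed across all genes. CAL-29 is an established human bladder carcinoma cell line. The data were the 6 CAL-29 libraries of the 12 RNAseq libraries of the study: 3 from cells transfected with siKMT9α, an siRNA against the messenger RNA of KMT9α, and 3 from cells transfected with siCtrl, a control siRNA. RNA of both groups was taken on day 3. The methods of the study name RNAiMAX as the transfection reagent for CAL-29, and no treatment beside the transfection is named for either group. Where a symbol had several transcripts, that with the highest sum of counts in these libraries stood for the gene, which gave 23064 genes from 37400 transcripts, and 14673 of them passed a filter on low counts and were tested. The deposited columns call the siRNA si270, and the text of the study describes the RNAseq of siKMT9α#1 only. With 1 siRNA against KMT9α and 1 cell line, what follows the loss of KMT9α and what follows the sequence of the siRNA cannot be told apart. Nothing says that the libraries of a group came from separate cultures, so the p-values measure the spread between these libraries.

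KMT9 is a heterodimer of KMT9α, encoded by N6AMT1, which holds the catalytic site, and KMT9β, encoded by TRMT112, a small protein that stabilises several methyltransferases. It places a monomethyl mark on a lysine of histone H4, a mark linked to active promoters. An siRNA directs the RNA-induced silencing complex to a fully matched messenger RNA, which is then cut, and it can also lower other messenger RNAs whose 3′ UTR pairs with bases 2 to 8 of its guide strand, the seed.

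The site matched by the siRNA lies in the coding sequence of N6AMT1, in exon 3, at chr21:30254500-30254525 on the minus strand (GRCh37), within a gene that runs from 30244513 to 30257693. It is shown because the same 7 bases recur in the 3′ UTRs of many genes that fell. The stretch covers the targets of siKMT9α#1 and of a further siRNA of the study, siKMT9α#2, which are shifted by 1 base. The capitals mark the heptamer complementary to the seed of the siKMT9α#1 guide.
N6AMT1 target site: cacgctgtaacaaagttcACATTCAa

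N6AMT1 had 11.4, 10.2 and 9.68 CPM with siCtrl and 2.82, 2.93 and 1.99 CPM with siKMT9α (CPM: counts scaled to a common library size after TMM scaling, which corrects for library composition). All 3 siKMT9α libraries lay below all 3 siCtrl libraries, and the gene fell (log2 fold change -2.0, standard error 0.15, adjusted p = 1.33e-10, edgeR's quasi-likelihood F test, Benjamini-Hochberg adjusted over all genes). An exact two-sided permutation test gave p = 0.1, the smallest that 3 against 3 libraries allow. The other subunit did not pass the threshold used below: TRMT112 had 51.7, 61.8 and 59.5 CPM with siCtrl and 68.4, 69 and 71.3 CPM with siKMT9α (log2 fold change 0.27), and of the 16 other settings tried it passed in 1, with the replicate number in the fit. Of the further methyltransferases that TRMT112 binds, BUD23 (0.68), which methylates the RNA of the small ribosomal subunit, rose, and ALKBH8 (0.51), a tRNA methyltransferase, did not pass. ETF1 (0.38), the translation release factor that KMT9α methylates, rose, but its call was lost without siCtrl replicate 2 and without any 1 of the siKMT9α libraries, with p from 2.25e-06 to 3.18e-06 in edgeR. Of the 9 genes of this list 3 passed, 2 to 5 when 1 library was left out and 3 to 7 in the other settings, the most with the replicate number in the fit.

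A gene was called a DEG at an unadjusted p below 1e-06, the threshold of the study, and "rose" and "fell" are used below for DEGs alone, with the log2 fold change in brackets after the gene. By this rule 4402 genes (30% of those tested) were called, 2194 that rose (15%) and 2208 that fell (15%). At an adjusted p below 0.05, 10194 genes (69.5%) were called, 5026 of them higher and 5168 lower with siKMT9α. The libraries of both groups did not overlap for 10610 genes (72.3%). The stricter threshold, p below 1e-06, is therefore used for the counts of gene groups. Scaled by total counts in place of TMM, 2754 genes rose and 1879 fell. The directions were unequal among large changes: 545 genes rose and 972 fell at least 2-fold, 89 and 236 at least 4-fold, and 32 and 79 at least 8-fold. The median log2 fold change of all genes tested was -0.02. Total counts ranged from 24479348.5 to 32007684.5 per library. The 10 most abundant genes took between 6.99% and 7.28% of the counts with siCtrl and between 4.30% and 4.35% with siKMT9α. No library repeated another: the chi-square divided by its degrees of freedom was 8.19 and 12.3 for siCtrl 1 against the other siCtrl libraries, 3.31 between those 2, and 2.45 to 3.97 among the siKMT9α libraries. Without siCtrl replicate 1 there were 5469 DEGs, and without siKMT9α replicate 3 there were 3119.

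**Figure D1:**
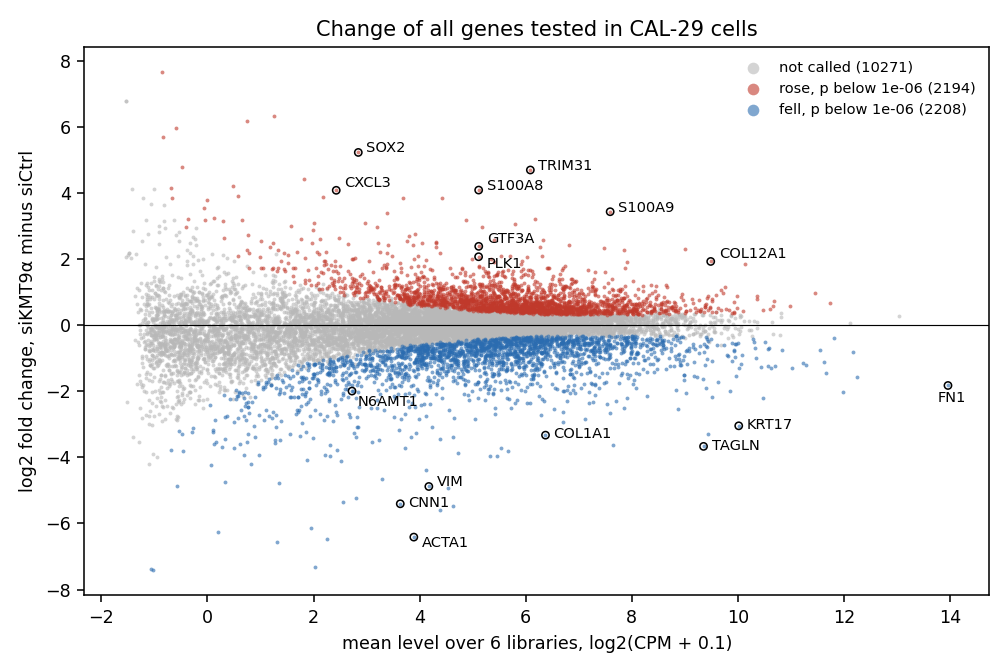
Each point is a gene tested, with its mean level over 6 libraries on the x axis (log2 of CPM + 0.1) and its log2 fold change, siKMT9α minus siCtrl, on the y axis; red genes rose, blue genes fell and grey genes were not called. The points below -4 outnumber those above 4, and SOX2, TRIM31, CNN1, ACTA1 and VIM are among the far points, while points at the left edge rest on few counts.

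As a check of the cell type, the 12 epithelial and urothelial markers were all tested, with a summed level of 13600 to 14300 CPM with siCtrl and 6610 to 6760 CPM with siKMT9α. KRT8, keratin 8, had 4573, 4872 and 4769.9 CPM with siCtrl and 1698, 1728 and 1779 CPM with siKMT9α. CDH1, E-cadherin, had 2442, 2295 and 2081 CPM with siCtrl and 1353, 1364 and 1350.4 CPM with siKMT9α. Both were present in every library and lower with siKMT9α. Of these 12 markers, 8 fell and none rose, with a median log2 fold change of -0.72. The leukocyte markers CD3D and MS4A1 had no count in any library, and 6 of 10 leukocyte, 4 of 8 endothelial and 4 of 11 fibroblast markers, PECAM1, PTPRC, DCN and THY1 among them, were under the filter. The summed endothelial list had 14.3 to 17.4 CPM with siCtrl and 6.59 to 8.43 CPM with siKMT9α. The summed leukocyte list had 18.7 to 21.8 and 15.8 to 17.2 CPM. Of the 4 markers tested in each, 1 rose and 1 fell, with log2 fold changes from -2.68 to 2.48 (endothelial) and from -3.27 to 1.12 (leukocyte). The summed fibroblast list lay between 288 and 311 CPM with siCtrl and between 76.3 and 83.5 CPM with siKMT9α, with COL1A1 and FAP as its most abundant members. In these bulk libraries of 1 cell line, fewer cells that express a gene and less of its RNA per cell cannot be told apart.

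Among genes of cell division, rises outnumbered falls. Of 51 genes of the mitotic spindle and kinetochore, 38 rose (74.5%) and 0 fell, with a median log2 fold change of 0.90. The kinase PLK1, which drives mitotic entry and spindle assembly, had 11.4, 13.8 and 14.5 CPM with siCtrl and 51.4, 56.5 and 59.1 CPM with siKMT9α (log2 fold change 2.07, standard error 0.081, adjusted p = 5.01e-15). AURKA, the centrosomal kinase that activates PLK1, had 36.8, 40.3 and 41.1 CPM with siCtrl and 125, 136 and 132 CPM with siKMT9α (log2 fold change 1.73, standard error 0.055, adjusted p = 1.81e-16). The siKMT9α values of both kinases lay far above every siCtrl value. The centromeric histone CENPA (1.77), the spindle checkpoint protein BUB1B (1.62) and the anaphase activator CDC20 (1.45) rose as well. Among 36 kinesin motors, 14 rose (38.9%) and 5 fell (13.9%), against 15% of all genes in either direction. The rises were led by the mitotic motors KIF20A (2.0), KIF14 (1.73), KIF18A (1.71) and KIF2C (1.65), and the falls by KIF12 (-2.75), KIF26A (-1.31) and KIF3C (-1.15). KIF20A, which acts in cytokinesis, had 14.3, 16.1 and 18.4 CPM with siCtrl and 60.7, 66.4 and 68.7 CPM with siKMT9α. 

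Of 43 cyclins, CDKs and their regulators, 21 rose (48.8%) and 3 fell (6.98%), against 15% of all genes in either direction. CCNB1 (1.65), CCNA2 (1.25) and CDK1 (1.17), which drive entry into mitosis, and FOXM1, the factor that transcribes many of them, rose. FOXM1 had 73.1, 77.2 and 81.3 CPM with siCtrl and 230.4, 241 and 239 CPM with siKMT9α (log2 fold change 1.62, standard error 0.050, adjusted p = 1.3e-16), with no overlap between the groups. The 3 that fell were WEE1 (-0.83), which restrains CDK1, CDK6 (-0.83), which starts the cycle in G1, and the CDK inhibitor CDKN1A (-0.78). Of 47 DNA replication genes, 29 rose (61.7%) and 1 fell, with a median of 0.48. DBF4, the activator of the origin-firing kinase CDC7, had 13.5, 13.1 and 12.7 CPM with siCtrl and 42.7, 41.5 and 43 CPM with siKMT9α (log2 fold change 1.7, standard error 0.068, adjusted p = 7.88e-15), and MCM10 (1.2) and ORC1 (1.01), which act at origins, followed. The exception was the helicase subunit MCM6 (-0.59). Of 37 genes of homologous recombination and Fanconi repair, 16 rose (43.2%), with FANCE (1.24) and EXO1 (1.02) first, and 2 fell (5.41%), with BRIP1 (-0.87) first. The replication-dependent histones did not rise with these lists: of 29 tested, 2 rose (6.9%) and 5 fell (17.2%), against 15% of all genes in either direction. The median was -0.62, with HIST2H2BE (-1.48) and HIST1H2AC (-1.28) among the falls. Their near-identical copies and mostly unpolyadenylated messages make these counts uncertain, 4 in all being called without siCtrl replicate 2 and without siKMT9α replicate 3.

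Many promoters of the mitotic genes hold a short motif that the list did not use. The cell cycle homology motif TTTGAA, read on both strands from 250 bases before to 50 bases after the start, was held by 27 of the 45 promoters found for the list (60.0%) and by 15.4% of all 27305 promoters of the RefSeq table (GRCh38.p14). Among the further lists searched, the share was highest in the muscle list described below, with 6 of 23 (26.1%). The windows are shown because their genes are among those that rose most, and the capitals mark the motif: PLK1 at chr16:23678848-23678877 and CENPA at chr2:26786026-26786055 on the plus strand, BUB1B at chr15:40161034-40161063 on the plus strand, and KIF14 at chr1:200620733-200620762 on the minus strand, where the motif appears as its reverse complement.
PLK1: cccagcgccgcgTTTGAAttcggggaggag
CENPA: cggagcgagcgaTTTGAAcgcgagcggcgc
BUB1B: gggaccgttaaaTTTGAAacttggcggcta
KIF14: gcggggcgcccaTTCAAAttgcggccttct

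No gene fell in the lists of ribosome biogenesis, cytosolic ribosomal proteins and nucleotide synthesis. Of 80 genes of ribosome biogenesis and RNA polymerases I and III, 43 rose and 0 fell, with a median of 0.41. GTF3A, the factor that binds the 5S ribosomal RNA gene, had 11.4, 11.6 and 10.4 CPM with siCtrl and 57.1, 54.8 and 61.8 CPM with siKMT9α (log2 fold change 2.38, standard error 0.072, adjusted p = 9.42e-17). POLR3G, an RNA polymerase III subunit typical of dividing and stem cells, had 2.24, 1.76 and 2.42 CPM with siCtrl and 8.96, 7.68 and 8.11 CPM with siKMT9α. The siKMT9α values of GTF3A and POLR3G lay above all siCtrl values. The polymerase I subunit POLR1B (1.18) and DKC1 (1.14), the pseudouridine synthase, rose as well. Of 80 cytosolic ribosomal proteins, 54 rose (67.5%) and 0 fell, with a median of 0.47. At an adjusted p below 0.05, 75 were higher and 1 lower, against 5026 and 5168 of all 14673 genes tested. RPL4 had 483, 551 and 571 CPM with siCtrl and 1060.5, 1117 and 1147 CPM with siKMT9α, and RPS20 had 205, 233 and 245 CPM with siCtrl and 445, 481 and 471 CPM with siKMT9α, the largest changes of the list, whose reads can be shared with pseudogene copies. The count depends on the libraries in the fit: without siCtrl replicate 2 it was 29, without siKMT9α replicate 2 it was 28, and without siKMT9α replicate 3 it was 22. Of 31 genes of the pentose phosphate pathway and nucleotide synthesis, 22 rose and 0 fell, with a median of 0.60: PAICS (1.0) of purine synthesis, PRPS1 (0.86), which makes the activated ribose, and RPIA (0.89) and TKT (0.84) of the pentose pathway. Of 31 nuclear pore genes, 14 rose, with POM121 (1.17) first, and 1 fell: NUP160, a scaffold nucleoporin, had 71.9, 60.7 and 60.9 CPM with siCtrl and 29.9, 26.8 and 26 CPM with siKMT9α. 

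Several of the largest falls were in contractile and cytoskeletal genes. Of 37 genes of the actin cytoskeleton and of serum response factor (SRF), which transcribes actin genes when actin is polymerised, 27 fell (73.0%) and 0 rose, with a median of -0.94. TAGLN, an actin-binding protein of smooth muscle, had 1066, 1248 and 1317 CPM with siCtrl and 81.6, 99.7 and 104 CPM with siKMT9α (log2 fold change -3.67, standard error 0.085, adjusted p = 1.61e-18). CNN1, the smooth muscle calponin, had 19.4, 26.2 and 26.6 CPM with siCtrl and 0.617, 0.457 and 0.636 CPM with siKMT9α (log2 fold change -5.41, standard error 0.18, adjusted p = 3.14e-16). In both, the groups were far apart. The tropomyosin TPM1 (-2.2), the regulatory light chain MYL9 (-2.18), the scaffold PDLIM7 (-2.34) and the filamin FLNA (-1.59) fell as well: FLNA, the most abundant of them, had 7675, 7046 and 7169 CPM with siCtrl and 2419, 2403 and 2472 CPM with siKMT9α. SRF itself did not pass (-0.21), at 132 to 136 CPM with siCtrl and 111 to 119 CPM with siKMT9α.

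Muscle genes stood out among the largest falls, and a list of 32 of them was written after these values were seen, so its counts are a description of that choice. Of the 28 tested, 24 fell and 1 rose. ACTA1, the skeletal muscle actin, had 23.5, 31.2 and 32.7 CPM with siCtrl and 0.454, 0.396 and 0.119 CPM with siKMT9α (log2 fold change -6.41, standard error 0.21, adjusted p = 2.41e-16). The atrial light chain MYL7 had 32.8, 44.9 and 44.7 CPM with siCtrl and 1.04, 0.427 and 1.11 CPM with siKMT9α, the natriuretic peptide NPPB had 47.9, 52.8 and 44.1 CPM with siCtrl and 1.66, 0.915 and 0.597 CPM with siKMT9α and the junction protein JPH2 had 86.4, 86.5 and 84.2 CPM with siCtrl and 6.75, 6.1 and 6.6 CPM with siKMT9α. MYLK, the kinase that phosphorylates myosin light chain, had 327, 369.7 and 416 CPM with siCtrl and 28.6, 30.5 and 30.3 CPM with siKMT9α (log2 fold change -3.64, standard error 0.074, adjusted p = 3.04e-19). The cofactor MYOCD (-1.39), which works with SRF in muscle, fell, from a range of 6.88 to 8.21 CPM with siCtrl to one of 2.53 to 3.15 CPM with siKMT9α. LMOD1, a leiomodin of smooth muscle, and CARMN, the host RNA of miR-143 and miR-145, had 568.5 and 602.5 counts in all with siCtrl and 9.5 and 4 with siKMT9α, so their fold changes rest on the counts of 1 group. SYNPO2 rose (1.0), but not without siCtrl replicate 2 or siKMT9α replicate 3, and the smooth muscle actin ACTA2 (0.18) and the heavy chain MYH11 (0.42) did not pass, at 2.61 to 4.45 CPM in all 6 libraries.

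The CArG box, the motif bound by SRF, was in 6 of the 34 promoters found for the actin list (17.6%) and in 5 of 23 for the muscle list (21.7%), against 1.29% of all 27305 promoters. The windows below are those of muscle genes that fell, with the box in capitals: MYLK at chr3:123620623-123620652 and MYL7 at chr7:44141374-44141403, both on the minus strand, ACTA1 at chr1:229434172-229434201 on the minus strand and LDB3, a protein of the Z-disc, at chr10:86668444-86668473 on the plus strand (GRCh38.p14). The match is a description of these windows and was not tested as a binding site.
MYLK: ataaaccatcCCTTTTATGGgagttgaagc
MYL7: ctgttcctctCCTTATTTGGaccttcaggt
ACTA1: tgcccaacacCCAAATATGGctcgagaagg
LDB3: gggttacagtCCATTTATGGgcgcagccga

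**Figure D2:**
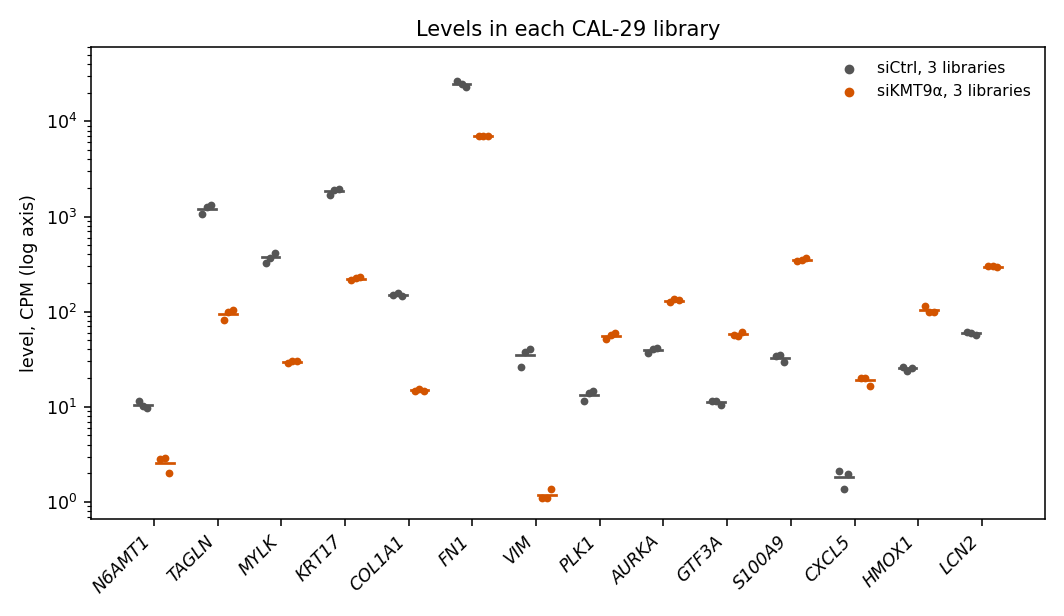
Each dot is the level of a gene in 1 library on a log axis (CPM, not divided by transcript length, so heights are compared within a gene only), grey for the 3 siCtrl and orange for the 3 siKMT9α libraries, and short lines are group means. The 14 genes were picked from the DEGs of the text, 7 lower and 7 higher with siKMT9α. Their groups do not overlap, which also holds for 72.3% of all genes tested.

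Falls outnumbered rises among genes of the extracellular matrix and its receptors. Of 32 collagens, 17 fell (53.1%) and 1 rose (3.12%), against 15% of all genes in either direction, with a median of -1.06. COL1A1, the fibrillar collagen I chain, had 149, 156 and 147 CPM with siCtrl and 14.7, 15.6 and 14.6 CPM with siKMT9α and fell (-3.33), COL18A1 (-2.35) and COL16A1 (-2.07) fell with it, and COL5A2 (-0.15) did not pass. COL12A1, a collagen that decorates fibrils, went the other way, with 319, 286 and 293 CPM with siCtrl and 1075, 1166 and 1162 CPM with siKMT9α (log2 fold change 1.92, standard error 0.055, adjusted p = 4.07e-17). Among 38 matrix glycoproteins, 17 fell (44.7%) and 2 rose (5.26%). FN1, fibronectin and the most abundant gene of the siCtrl libraries, had 26654, 24558 and 23234 CPM with siCtrl and 6954, 7068 and 6946 CPM with siKMT9α (log2 fold change -1.83, standard error 0.061, adjusted p = 4.82e-16). TNC, tenascin C, had 1307, 1246 and 1235 CPM with siCtrl and 118, 133 and 138 CPM with siKMT9α (log2 fold change -3.28, standard error 0.061, adjusted p = 1.03e-19), and the fibulins FBLN5 (-2.23) and FBLN2 (-1.83) fell as well. EFEMP1, another fibulin, rose (1.0). COL1A1 also belongs to the fibroblast markers, but the study names no cells beside the CAL-29 line in these cultures. Whether the change lay in all cells or in some was not tested.

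Of 32 laminin and integrin chains, 16 fell (50%) and 2 rose (6.25%), against 15% of all genes in either direction. ITGAL, 1 of the 2 that rose, had 4 counts in all in the siCtrl libraries. Its call was lost without siCtrl replicate 2 or 3 and without any 1 of the siKMT9α libraries. ITGA11, a receptor for collagen I, had 12.4, 12.8 and 14.8 CPM with siCtrl and 0.292, 0.427 and 0.318 CPM with siKMT9α and ITGB3, the vitronectin receptor chain, had 37.3, 30.1 and 32.2 CPM with siCtrl and 1.07, 2.2 and 1.43 CPM with siKMT9α. Both were near-absent in the siKMT9α libraries. ITGA1 (-2.73) and ITGA6 (-1.51) fell too, and the laminin chain LAMA4 rose (0.97). Of 44 matrix proteases and inhibitors, 15 fell (34.1%) and 8 rose (18.2%), against 15% of all genes in either direction. The falls held the gelatinase MMP2 (-1.84), and the rises MMP13 (2.01) and PLAU (0.90), the urokinase plasminogen activator. MMP2 had 173, 172 and 178 CPM with siCtrl and 44.3, 52.8 and 48.8 CPM with siKMT9α (log2 fold change -1.84, standard error 0.057, adjusted p = 1.25e-16). PLAU had 595, 535 and 485 CPM with siCtrl and 991, 984 and 1029 CPM with siKMT9α (log2 fold change 0.90, standard error 0.060, adjusted p = 3.58e-11). The groups did not overlap for either gene.

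Genes of transforming growth factor β (TGF-β) signalling and of the Hippo pathway fell in part. Of 43 TGF-β and BMP pathway genes, 17 fell and 3 rose, with a median of -0.34. The receptor TGFBR1 had 86.2, 79 and 80.9 CPM with siCtrl and 18.9, 18.1 and 16.4 CPM with siKMT9α (log2 fold change -2.2, standard error 0.064, adjusted p = 4.54e-17), and the secreted inhibitors FSTL3 (-2.35) and NOG (-3.08), which bind activins and BMPs, fell. The rises held GDF15 (1.5), a stress-induced ligand, and ID1 (0.92), while its relative ID4 (-2.4) fell. Of 23 targets of YAP and TEAD, 13 fell and 4 rose, NUAK2 and ANKRD1 among the falls (-2.35 and -1.97) and the tissue factor F3 (1.18) and IGFBP3 (0.67) among the rises. The TEAD motif CATTCC was in 6 of the 19 promoters found for the 23 targets (31.6%) and in 14% of all promoters. It was not particular to these targets, since 10 of 23 promoters of the muscle list (43.5%) and 6 of 22 of the mucosal defence list described below (27.3%) held it. In the epithelial-mesenchymal list, 5 of 13 genes fell (38.5%), 1 rose (7.69%) and 7 were not called. VIM, the intermediate filament of mesenchymal cells, had 26.3, 37.3 and 40.5 CPM with siCtrl and 1.1, 1.1 and 1.35 CPM with siKMT9α (log2 fold change -4.88, standard error 0.17, adjusted p = 8.31e-16). N-cadherin, CDH2 (-2.14), and SNAI2 (-0.74) fell, but so did the epithelial factor OVOL1 (-1.15).

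Falls also outnumbered rises among junction and squamous genes. Of 32 tight junction and desmosome genes, 21 fell (65.6%) and 2 rose, with a median of -0.67. The desmosomal plakophilin PKP1 had 365, 369 and 371 CPM with siCtrl and 123, 119.7 and 120.1 CPM with siKMT9α (log2 fold change -1.61, standard error 0.045, adjusted p = 3.77e-17), and the desmocollin DSC2 (-1.56) and cingulin, CGN (-1.47), fell, while TJP3 (1.74) rose and CLDN1 (0.10) did not pass. Of 31 basal and squamous genes, 16 fell (51.6%) and 5 rose (16.1%), against 15% of all genes in either direction, with a median of -0.87. KRT17, a basal keratin of carcinomas, had 1674, 1894 and 1964 CPM with siCtrl and 214, 224 and 231 CPM with siKMT9α (log2 fold change -3.05, standard error 0.062, adjusted p = 3.06e-19). KRT16 (-3.97), KLK5 (-3.3) and SPRR3 (-2.83) fell with it, although reads of KRT16 and KRT17 can be shared with near-identical copies. The 5 that rose were S100A8 (4.08), S100A9 (3.43), S100A7 (2.96), PI3 (2.44) and CSTA (1.68), antimicrobial proteins and protease inhibitors of squamous epithelium. Among 23 luminal genes, 6 rose (26.1%) and 5 fell (21.7%), against 15% of all genes in either direction. The factors ELF3 (1.18), FOXA1 (1.09) and KLF5 (1.09) rose. The luminal keratins KRT8 (-1.45) and KRT18 (-1.31) and the uroplakin UPK1B (-0.52) fell, and UPK2 (-0.39) did not pass.

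Genes of mucosal defence and inflammation were among the largest rises. Of 39 genes of NF-κB feedback, cytokines and chemokines, 18 rose (46.2%) and 6 fell (15.4%), against 15% of all genes in either direction. The median was 0.46. The neutrophil chemokine CXCL5 had 2.12, 1.37 and 1.97 CPM with siCtrl and 20.2, 20 and 16.5 CPM with siKMT9α (log2 fold change 3.38, standard error 0.14, adjusted p = 2.01e-14), and CXCL3 had 0.653, 0.664 and 0.454 CPM with siCtrl and 10.1, 10.3 and 9.54 CPM with siKMT9α (log2 fold change 4.07, standard error 0.18, adjusted p = 4.18e-14). CCL20, which attracts lymphocytes, had 3.5 counts in all in the siCtrl libraries and 278.5 in the siKMT9α libraries. BIRC3, an inhibitor of apoptosis induced by NF-κB, had 26.9, 21.7 and 20.7 CPM with siCtrl and 144, 136 and 130.3 CPM with siKMT9α, and SOD2, the mitochondrial superoxide dismutase, had 24.5, 25.2 and 25.9 CPM with siCtrl and 135, 130.5 and 121 CPM with siKMT9α. The siKMT9α libraries were higher for all 4 of these genes. The 6 that fell, a share near that of all genes, were led by IL11 (-1.91), IL32 (-1.65), TRAF1 (-1.39) and ICAM1 (-1.08). The κB motif was in 15 of the 32 promoters found for it (46.9%) and in 5.72% of all promoters, and it was present in genes that rose and in IL32, which fell. The windows show it in capitals for CXCL5 at chr4:73998749-73998778 and CXCL3 at chr4:74038749-74038778, both on the minus strand, and for IL32 at chr16:3065294-3065323 on the plus strand (GRCh38.p14).
CXCL5: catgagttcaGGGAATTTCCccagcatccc
CXCL3: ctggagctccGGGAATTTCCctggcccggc
IL32: cctgtactcaGGGAGTTTCCccagccagct

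A list of 36 mucosal defence and acute phase genes was written after the largest rises were seen. Of the 31 tested, 22 rose and 1 fell, which describes that choice. S100A8, a chain of calprotectin, had 3.88, 4.14 and 3.52 CPM with siCtrl and 60.2, 67.6 and 67.5 CPM with siKMT9α (log2 fold change 4.08, standard error 0.086, adjusted p = 3.72e-19). Its partner S100A9 had 34, 34.8 and 29.5 CPM with siCtrl and 339, 352 and 367 CPM with siKMT9α (log2 fold change 3.43, standard error 0.061, adjusted p = 7.79e-20). Neither gene had overlapping groups. The siderophore-binding protein LCN2 had 61.7, 60 and 56.2 CPM with siCtrl and 299, 298 and 297 CPM with siKMT9α (log2 fold change 2.33, standard error 0.050, adjusted p = 4.49e-19), the receptor that carries immunoglobulin A across epithelia, PIGR, had 13.9, 14.7 and 13.7 CPM with siCtrl and 126, 122 and 141 CPM with siKMT9α, and complement factor B, CFB, had 8.4, 8.05 and 8.01 CPM with siCtrl and 60.9, 63.9 and 67 CPM with siKMT9α. TRIM31, a ubiquitin ligase, had 5.71, 5.08 and 4.42 CPM with siCtrl and 131, 131 and 130.1 CPM with siKMT9α (log2 fold change 4.69, standard error 0.072, adjusted p = 1.4e-20). SAA1 and SAA2, acute phase apolipoproteins, rose (2.09 and 2.49), as did CEACAM5 and CEACAM6 (3.84 and 2.7), with reads that near-identical copies can share. CEACAM7 had 4 counts in all with siCtrl and 397 with siKMT9α. The gene that fell was DUOX2 (-0.75), an oxidase of mucosal surfaces, whose call was lost without siCtrl replicate 2 or siKMT9α replicates 1 or 2, with p from 2.27e-06 to 2.93e-06 in edgeR, and the secreted TFF1 (-1.06) did not pass. 

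Few interferon-stimulated genes passed: of 40 tested, 4 rose and 4 fell, both shares below the 15% of all genes, with a median of 0.23. At an adjusted p below 0.05, 21 were higher and 8 lower, against 5026 and 5168 of all 14673 genes tested. IRF1 (0.74) and IFIT2 (0.73) rose and IFI27 (-0.90), STAT2 (-0.72) and ISG15 (-0.59) fell. Between 19 and 21 of the 40 passed without the filter on low counts, with the replicate number in the fit and without siCtrl replicate 1. In the list of HLA and antigen processing genes, 8 of 25 rose (32%) and 3 fell (12%). These were 11 in all, against 16 without siCtrl replicate 1 and 17 without the filter on low counts. The inducible subunits of the immunoproteasome rose: PSMB10 had 27.3, 28.5 and 25.4 CPM with siCtrl and 58.5, 60.1 and 63.3 CPM with siKMT9α, and PSMB9 (0.77) and PSMB8 (0.65) followed. These 3 were also the largest rises among 37 proteasome subunits, of which 14 rose and 0 fell, and that count was 8 without siCtrl replicate 2, siKMT9α replicate 2 or siKMT9α replicate 3, 22 without siCtrl replicate 1 and at most 27 in any setting. The peptidases ERAP1 (-0.74) and ERAP2 (-0.66), which trim peptides for HLA, fell, and HLA-C (-0.09) did not pass.

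Targets of NRF2, the factor that responds to oxidants and electrophiles, rose: 20 of 30 (66.7%), with 1 that fell and a median of 0.69. HMOX1, heme oxygenase 1, had 26.4, 24 and 25.5 CPM with siCtrl and 115, 98.6 and 99.7 CPM with siKMT9α (log2 fold change 2.05, standard error 0.065, adjusted p = 2.26e-16). The ferritin heavy chain FTH1 had 1746, 1891 and 2040.1 CPM with siCtrl and 3696, 3682 and 3705 CPM with siKMT9α, and the reductases AKR1C1 (1.77) and AKR1C2 (2.18), whose reads can be shared, rose. SLC7A11 (0.11), SRXN1 (-0.26) and GCLM (0.20), other well known targets, did not pass, and the epoxide hydrolase EPHX1 (-0.84) fell. The core of the motif bound by NRF2, TGACNNNGC, was in 4 of the 21 promoters found for the list (19%), against 13.6% of all promoters and 15% of those of the genes tested.

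The metabolic lists held genes of both directions, and most of their shares lay near the 15% of all genes in either direction. Of 29 glycolysis genes, 9 rose (31%) and 5 fell (17.2%): HK2 (0.99), LDHB (0.83), LDHA (0.69) and GAPDH (0.59) rose, and the glucose transporter SLC2A3, with 12.2, 12.4 and 12.9 CPM with siCtrl and 1.59, 1.19 and 0.756 CPM with siKMT9α, and PFKFB4 (-1.79) fell, while the transporter SLC2A1 (0.63) rose. Of 25 sterol synthesis genes, 5 rose and 5 fell (20% each), and 5 or 6 in all were called without siCtrl replicate 2 or without any 1 of the siKMT9α libraries. INSIG1, which holds back sterol synthesis, had 111, 100.3 and 103 CPM with siCtrl and 30.2, 30.4 and 30.7 CPM with siKMT9α (log2 fold change -1.78, standard error 0.054, adjusted p = 9.65e-17). In fatty acid synthesis, where 4 of 26 rose (15.4%) and 5 fell (19.2%), with 9 called in all, 14 without siCtrl replicate 1 and 15 with the replicate number in the fit, the elongase ELOVL6 rose (2.51) and the elongase ELOVL5 fell (-2.12), the first with 5.47, 6.25 and 5.97 CPM with siCtrl and 34.9, 34.2 and 31.5 CPM with siKMT9α and the second with 265, 259 and 247 CPM with siCtrl and 63.1, 60 and 53.8 CPM with siKMT9α. The respiratory chain had a median of 0.27 for complex I, with 6 of 38 that rose (15.8%) and 0 that fell. At an adjusted p below 0.05, 26 were higher and 2 lower, against 5026 and 5168 of all 14673 genes tested. The number called depends on the fit: it was 2 without siCtrl replicate 2, siKMT9α replicate 2 or siKMT9α replicate 3, 12 with DESeq2, 14 with edgeR's likelihood ratio and exact tests, and 17 with no filter on low counts or with the replicate number in the fit.

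Of 30 targets of p53, 11 fell (36.7%) and 5 rose (16.7%), against 15% of all genes in either direction. The arrest gene GADD45A (-1.02), the BH3-only protein PMAIP1 (-1.07), CCNG1 (-1.1) and TP53INP1 (-1.14) fell, and GDF15, the death receptor FAS (1.0) and the nuclease AEN (0.90) rose. Of 37 apoptosis regulators, 10 rose and 10 fell (27% each), and 13 in all were called without siCtrl replicate 2. BOK (-1.88), a relative of BAX and BAK, fell, with 83.7, 81.8 and 84.7 CPM with siCtrl and 22.2, 22.5 and 23.4 CPM with siKMT9α, and BIRC3, BIK (1.05) and BID (0.77) rose. 

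Of 36 genes of PI3K, AKT and mTOR signalling, 7 rose and 7 fell (19.4% each, against 15% of all genes), and the 14 called became 22 with no filter on low counts, 20 without siCtrl replicate 1 and 23 with the replicate number in the fit. FOXO1, a factor that AKT holds out of the nucleus, had 62.3, 63.5 and 63 CPM with siCtrl and 14.3, 15.7 and 14.9 CPM with siKMT9α (log2 fold change -2.07, standard error 0.062, adjusted p = 8.04e-17). The kinase AKT1 had 168, 182 and 180.0 CPM with siCtrl and 58.1, 59.6 and 60.3 CPM with siKMT9α (log2 fold change -1.57, standard error 0.049, adjusted p = 1.43e-16). Both were lower in every siKMT9α library, while the kinase subunits PIK3R3 (1.85) and PIK3CA (1.02) and the mTOR partners MLST8 (1.12) and RPTOR (0.93) rose.

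Among chromatin and DNA-binding factors, 1 large family held few rises. Of 464 zinc finger genes named ZNF, 88 fell (19%) and 8 rose (1.72%), against 15% of all genes in either direction. At an adjusted p below 0.05, 262 were lower and 59 higher, against 5168 and 5026 of all 14673 genes tested. The median log2 fold change of the family was -0.32. ZNF365, which has a role in genome stability, had 26.2, 29 and 26.3 CPM with siCtrl and 5.13, 4.82 and 5.25 CPM with siKMT9α (log2 fold change -2.43, standard error 0.093, adjusted p = 3.69e-15), and ZNF665 (-2.08), ZNF287 (-1.86) and ZNF254 (-1.48) followed. The call is sensitive for this family: 63 of its genes passed without siKMT9α replicate 3 and 161 with the replicate number in the fit. Of 34 histone lysine methyltransferases, 8 rose (23.5%) and 2 fell (5.88%), with 17 called in all without siCtrl replicate 1. SUV39H2 (0.95), an enzyme of heterochromatin, and NSD2 (0.88), an enzyme of transcribed chromatin, rose, and PRDM2 (-0.87) fell. Of 22 demethylases, 5 fell (22.7%) and 1 rose (4.55%). KDM6A, which removes the methyl mark set by Polycomb and is often mutated in bladder cancer, had 443, 450.5 and 453 CPM with siCtrl and 199, 200.2 and 202 CPM with siKMT9α (log2 fold change -1.16, standard error 0.045, adjusted p = 4.56e-15), and KDM7A (-1.11) followed. The maintenance DNA methyltransferase DNMT1 (0.95) rose.

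Some of the largest changes were of single genes outside these lists. SOX2, a transcription factor of stem cells and basal epithelia, had 0.245, 0.586 and 0.265 CPM with siCtrl and 13.3, 14.4 and 13.6 CPM with siKMT9α (log2 fold change 5.22, standard error 0.20, adjusted p = 3.55e-15). NTRK2, the receptor of brain-derived neurotrophic factor, had 0.816, 0.821 and 0.832 CPM with siCtrl and 7.46, 6.77 and 6.92 CPM with siKMT9α, and HPGD, which breaks down prostaglandins, had 1.59, 1.68 and 1.59 CPM with siCtrl and 14.3, 13.4 and 13.7 CPM with siKMT9α. All 3 were higher in every siKMT9α library. EDN2, an endothelin, had 4.41, 4.06 and 5.75 CPM with siCtrl and 0.162, 0.183 and 0.159 CPM with siKMT9α, and GABRP, a chloride channel subunit found in basal carcinomas, had 41.3, 48 and 44.9 CPM with siCtrl and 1.33, 1.34 and 1.79 CPM with siKMT9α. Both were near-absent with siKMT9α. GLI2, an effector of Hedgehog signalling, had 711.5 counts in all with siCtrl and 9 with siKMT9α, and LEFTY2, a secreted inhibitor of Nodal, had 362.5 and 4.

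The seed site of the siRNA recurs outside N6AMT1. Over the longest annotated 3′ UTR of the 13163 genes with one of at least 50 bases (GENCODE, GRCh37), 1988 genes (15.1%) held ACATTCA, the heptamer complementary to the seed of the siKMT9α#1 guide. Of the genes with it, 30.4% fell and 9.51% rose, against 13.3% and 17% of the genes without it. The share that fell was 13.3% with 0 sites, 27.8% with 1 and 41.3% with 2 or more, and the medians were 0.04, -0.23 and -0.46. The site was in 3.01% of the shortest, 10.9% of the middle and 31.4% of the longest UTRs, split into 3 groups of about equal size. In these groups 27.3%, 31.1% and 30.4% of the genes with the site fell, against 10.5%, 14.3% and 15.9% of those without. The site of the siKMT9α#2 guide, CACATTC, overlaps the first by 6 bases. With 0 copies of CACATTC 14.7% of genes fell, with 1 copy 21.3% and with 2 or more 32.8%. Of 947 genes that held CACATTC alone 17.5% fell, of 1150 that held ACATTCA alone 31.0% fell, and of 10228 with neither 12.9% fell. The site of the siCtrl guide, ACGCAAA, went the other way: of 273 genes with it 31.5% rose and 10.6% fell. 

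The site was unevenly spread over the groups above. Among genes that fell at least 8-fold, 8 of 72 (11.1%) held ACATTCA, a share below the 15.1% of all genes, and the share was 27.2% among those that fell 4- to 8-fold, 33.9% at 2- to 4-fold and 27.4% under 2-fold. Of all 2089 genes that fell and had a 3′ UTR, 604 held the site (28.9%). Against this 28.9%, the share among the falls of a list was lower in 3 of 27 of the actin list, 3 of 17 collagens, 1 of 16 laminins and integrins, 1 of 16 basal and squamous genes and 5 of 21 of the junction list. Over all genes of these lists with a 3′ UTR, called or not, 13.5%, 12.5%, 6.25%, 6.45% and 18.8% held the site, against 15.1% of all genes. The junction list lay above that share and the others below it. The share among the falls was higher in 6 of 17 of the TGF-β and BMP list, 40 of 85 zinc finger genes, 5 of 10 apoptosis regulators, 5 of 7 genes of PI3K, AKT and mTOR signalling, 4 of 5 sterol synthesis genes, all 3 of the HLA list and 7 of 12 transferases of O-glycans. Of all genes of these lists with a 3′ UTR, 23.3%, 22.5%, 18.9%, 19.4%, 20%, 25% and 21.2% held the site. Of the genes named in the text beside N6AMT1, 28 of the 96 with a 3′ UTR that fell and 13 of the 101 that rose held it, CXCL5 and DBF4 among the latter. Of those that fell, 19 held it once, 7 at 2 places and 2 at more. As examples, the site is in the 3′ UTRs of INSIG1, TGFBR1, FOXO1 and AKT1, once each, and in 2 places in RBPJ, the DNA-binding factor of the Notch pathway, which had 64.5, 61.5 and 61.5 CPM with siCtrl and 16.7, 17 and 15.4 CPM with siKMT9α (log2 fold change -1.93, standard error 0.063, adjusted p = 2.69e-16). The windows carry the heptamer in capitals: INSIG1 at chr7:155101861-155101889 and TGFBR1 at chr9:101915243-101915271 on the plus strand, FOXO1 at chr13:41130257-41130285 and AKT1 at chr14:105235750-105235778 on the minus strand, and both sites of RBPJ at chr4:26433135-26433163 and chr4:26433490-26433518 on the plus strand (GRCh37, each within 1 exon and after the stop codon). The shortest annotated 3′ UTR lacks the site in INSIG1, TGFBR1 and RBPJ and holds it in FOXO1 and AKT1. The part of the siRNA sequence in these changes was not tested.
INSIG1: tagtgaggttcACATTCAtactaagtttt
TGFBR1: tatggttaataACATTCAacctgtttatt
FOXO1: ttaaaattcttACATTCAagctcctaaga
AKT1: gtttttttacaACATTCAactttagtatt
RBPJ, first site: tgctctaaaatACATTCAggttccaagcc
RBPJ, the other site: gagaggttctaACATTCAcatgcaatttg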

How the data were processed

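RNA from 6 CAL-29 libraries (3 siCtrl, 3 siKMT9α) was analysed, grouped by the sample titles. The authors aligned reads to hg19 with STAR and counted them with HOMER. The deposited table held estimated counts per RefSeq transcript, not normalized and in part not whole (37.9% of values), and the authors' own p-values and fold changes, which were not used. Counts were rounded to whole numbers and scaled with TMM in edgeR 4.0.16 (R 4.3.3). filterByExpr set the filter on low counts, and the quasi-likelihood test had the siRNA as its only term. The standard error was the size of the log2 fold change divided by the square root of F. Libraries held 24479348.5 to 32007684.5 counts, and precision was set by the spread between them.

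The cell line, the gene lists and the comparisons were chosen with earlier results of these data known. Named genes were N6AMT1, TRMT112, the 15 largest rises and falls among DEGs whose mean count reached 50, and up to 4 rises and 4 falls per list, with list members that define a list and did not pass. BID, CDC20, CDH1, CDK1, CSTA, FLNA, FN1, GAPDH, PLAU and SOD2, and the contractile and mucosal lists, were named after their values were seen. Exonic 3′ UTRs were taken from GENCODE (GRCh37) and promoters from RefSeq (GRCh38.p14), and siRNA sequences from the methods of the study. Alternatives were DESeq2 1.42.0, other edgeR tests, scalings and filters, every transcript, other thresholds, a replicate block and leaving out each library. The fit was tested on simulated data. Figures were drawn with matplotlib 3.10.9 (Python 3.11.15).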

Additional observations from a re-analysis of the deposited data

How the results depend on the processing

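N6AMT1 fell in all 16 settings in which it was recomputed beside the reported one, with a log2 fold change of -2.09 to -1.85 when 1 library was left out. The number of DEGs was 4402, and it ranged from 3119 (without siKMT9α replicate 3) to 5469 (without siCtrl replicate 1) when 1 library was left out, with 47.7% to 51.1% of them higher. It was 7863 with every transcript in place of 1 per symbol, 10194 at an adjusted p below 0.05 and 1517 where a 2-fold change was also required, of which 35.9% rose. Scaling by total counts left 4633 DEGs and raised the share that rose from 49.8% to 59.4%. Apart from the replicate block, the other settings gave between 4236 and 6182 DEGs. The median log2 fold change of genes with ACATTCA was -0.26 in the longest and -0.37 in the shortest annotated 3′ UTR. The causes were not tested. The titles number the libraries of both groups from 1, and these numbers are used here, while the descriptions run the siKMT9α numbers on after those of siCtrl, so the labels do not agree on a pairing. The libraries with the same number in the titles share only that number: the correlations of their deviations from the group means were 0.167, 0.0286 and 0.0639, and siCtrl 3 correlated better with siKMT9α 2 (0.105). With the replicate block there were 6327 DEGs and N6AMT1 had a log2 fold change of -2.01. Of the 218 other genes named in the text, 6 lost or gained the call in at least 1 setting and 0 changed direction. The naming rule took genes with large changes in the same fit, so these counts do not describe the DEGs at large. Among the lists of the text, the counts of KMT9 partners, replication-dependent histones, apoptosis regulators, interferon-stimulated genes, HLA genes, sterol and fatty acid synthesis, complex I, cytosolic ribosomal proteins, proteasome subunits, histone lysine methyltransferases, zinc finger genes and PI3K, AKT and mTOR genes moved by over 1.5 times with the libraries, the filter or the test used. Genes with few counts in 1 group, such as CEACAM7, CCL20, CARMN and LMOD1, are limited by depth, and their fold changes are not given.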

Other observations

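Other gene families held genes of both directions. Of 51 Wnt pathway genes, 16 fell (31.4%) and 5 rose (9.8%), against 15% of all genes in either direction. The ligand WNT5B, of the branch without β-catenin, fell (-3.55), while the related WNT5A had 31.2, 28.5 and 28.6 CPM with siCtrl and 62.5, 61.8 and 64.6 CPM with siKMT9α and rose (1.1). The secreted modulator DKK3 (-2.52) fell and the secreted inhibitor SFRP5 (1.16) rose. LGR5, a receptor of R-spondins, had 85.5 counts in all with siCtrl and 2.5 with siKMT9α. Of 33 Notch pathway genes, 7 fell (21.2%) and 5 rose (15.2%), shares near those of all genes: RBPJ, the DNA-binding factor of the pathway, fell, and NRARP, a feedback inhibitor that the pathway induces, had 17.8, 20.9 and 18.7 CPM with siCtrl and 57.2, 57.9 and 61 CPM with siKMT9α (log2 fold change 1.62, standard error 0.067, adjusted p = 1.3e-14). Of 33 small nucleolar RNA host genes, 13 rose (39.4%) and 2 fell (6.06%), with SNHG15 (1.54), SNHG6 (1.24) and SNHG8 (1.18) first. These RNAs carry the guides of ribosomal RNA modification in their introns.

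Of 33 transferases of O-glycans, 12 fell (36.4%) and 8 rose (24.2%), against 15% of all genes in either direction. The sialyltransferase ST6GALNAC1, which makes the sialyl-Tn antigen, had 0.653, 0.586 and 0.454 CPM with siCtrl and 3.38, 3.54 and 2.86 CPM with siKMT9α (log2 fold change 2.53, standard error 0.25, adjusted p = 1.44e-08), and GALNT18, which starts O-glycans, had 57.4, 65.7 and 61.6 CPM with siCtrl and 15.1, 16.2 and 16.9 CPM with siKMT9α. Of 252 solute carriers, 32 rose (12.7%) and 49 fell (19.4%), again near the shares of all genes. SLC6A14, which imports amino acids, had 3.39, 2.7 and 2.34 CPM with siCtrl and 42.1, 40.2 and 37 CPM with siKMT9α (log2 fold change 3.83, standard error 0.11, adjusted p = 3.28e-17), and SLC18B1, a vesicular polyamine transporter, had 4.45, 3.36 and 3.78 CPM with siCtrl and 26.2, 26.8 and 25.5 CPM with siKMT9α. The zinc transporter SLC39A11 had 30.3, 30.6 and 29 CPM with siCtrl and 4.02, 4.09 and 5.21 CPM with siKMT9α, while the metallothionein MT2A, which binds zinc, had 93.6, 104 and 107 CPM with siCtrl and 221, 214 and 182 CPM with siKMT9α. The siKMT9α libraries were above all siCtrl libraries for SLC6A14, SLC18B1 and MT2A and below them for SLC39A11.

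The share of genes that fell went from 8.82% among the shortest to 21.5% among the longest transcripts, in 5 groups of about equal size. The share that rose was 16.2% and 13.1% in these 2 groups, and the median log2 fold change 0.08 and -0.09. Over 14151 genes, the Spearman correlation of log2 fold change and transcript length was weak, at -0.0887. Of 1322 non-coding transcripts tested, 88 rose and 106 fell, with a median of -0.14. Both shares were below the 15% of all genes in either direction.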
